A study of Mus musculus with 13 samples.

Results

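Genes that mark serotonergic neurons were followed in the midbrains of mice given the dopaminergic toxin MPTP, as a monoamine population of the same tissue that is not its main target. The 7 genes were Tph2, Slc6a4, Fev, Htr1a, Htr1b, Gata2 and Gata3, chosen by symbol from the 49315 genes counted in each of 13 libraries, and all 7 had enough counts to be tested. With all 13 libraries, none of the 7 was called in any of 6 comparisons by edgeR, the main test, or by DESeq2. By edgeR 0% to 3.18% of all tested genes were called in these comparisons. At such shares 0 of 7 does not show that these genes were unchanged. On the same libraries limma voom with sample quality weights called 3 of them after MPTP, in Cre- mice and averaged over genotypes. These were Tph2 and Fev as lower and Gata2 as higher. The share of all tested genes that voom called was not counted, so these 3 calls cannot be set against it. When 1 library that stands apart from the other 12 was left out, edgeR called Fev and Tph2 as lower after MPTP. They stood at 0.626 and 0.800 times the saline level over both genotypes. The other 5 genes did not pass the test, and 9.14% of all tested genes were called. With that library in, the estimate for Fev in the same edgeR fit was above saline. The call of Tph2 remained when a trend on GC content was also removed and the call of Fev did not, and Gata2 was then called as higher after MPTP. The share of all tested genes called was not counted with the trend removed.

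Serotonergic neurons lie in the raphe nuclei, which run along the midline from the midbrain into the hindbrain and send axons through the whole brain. They make serotonin from tryptophan with tryptophan hydroxylase, load it into vesicles with the same transporter that dopaminergic neurons use, and take it back up through a plasma membrane transporter of their own. A small set of transcription factors, among them Fev and the GATA factors, switches on this program and keeps it on in the adult. MPTP is turned into its toxic metabolite MPP+ in astrocytes, and MPP+ enters dopaminergic neurons through the dopamine transporter, which serotonergic neurons do not carry.

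The 13 male mice were 8 to 12 weeks old, carried Ripk3fl/fl on a C57BL/6J background, and all received tamoxifen at 60 mg/kg for 5 days. Cre+ mice (Ripk3fl/fl Aldh1l1Cre+) carry a tamoxifen-inducible recombinase driven by the astrocyte promoter Aldh1l1, and Cre- mice (Ripk3fl/fl Aldh1l1Cre-) were littermates without it. Mice received 5 daily doses of MPTP at 20 mg/kg or saline, and whole midbrain was taken 3 days after the last dose. Each library came from 1 mouse, with 3 mice in each of the Cre- Saline, Cre+ Saline and Cre- MPTP groups and 4 in the Cre+ MPTP group. Ripk3, the deleted gene, had 4 to 40 counts per library, too few in whole tissue to check the genotype of single mice.

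Tph2 encodes the rate-limiting enzyme of serotonin synthesis in the brain and lies on the minus strand of chromosome 10 (GRCm38, chr10:115078641-115185022). Slc6a4 encodes the serotonin transporter (plus strand, chr11:76998603-77032340), and Fev encodes an ETS family transcription factor that is restricted to serotonergic neurons in the brain (minus strand, chr1:74881509-74885419). The 250 bases before the RefSeq start of these genes are shown because they define the cell type and carry the results that follow (GRCm38.p6, 5′ to 3′ along the gene). Capitals mark the letters GATAA, the core read by GATA factors, and GGAAG, which holds the core read by ETS factors, on either strand.
Tph2, chr10:115185023-115185272: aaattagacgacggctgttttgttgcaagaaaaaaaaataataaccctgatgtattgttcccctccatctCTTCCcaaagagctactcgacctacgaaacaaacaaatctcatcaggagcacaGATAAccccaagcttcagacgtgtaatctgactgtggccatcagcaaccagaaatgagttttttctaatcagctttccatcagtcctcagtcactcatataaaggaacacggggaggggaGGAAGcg
Slc6a4, chr11:76998347-76998596: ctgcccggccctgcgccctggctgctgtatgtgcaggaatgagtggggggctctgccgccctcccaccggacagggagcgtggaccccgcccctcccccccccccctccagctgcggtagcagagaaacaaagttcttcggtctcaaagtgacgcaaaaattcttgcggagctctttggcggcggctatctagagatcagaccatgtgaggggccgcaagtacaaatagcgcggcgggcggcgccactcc
Fev, chr1:74885409-74885658: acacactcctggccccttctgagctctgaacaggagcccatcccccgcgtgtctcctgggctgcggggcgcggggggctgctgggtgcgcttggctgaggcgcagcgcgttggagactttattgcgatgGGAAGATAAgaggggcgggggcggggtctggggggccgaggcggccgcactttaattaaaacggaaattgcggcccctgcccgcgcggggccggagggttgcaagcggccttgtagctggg
The Tph2 window held 1 match of GATAA and 2 of GGAAG, the Fev window 1 of each, overlapping by their shared base, and the Slc6a4 window 0 of either. Of 32851 windows of the same length in the RefSeq table, 22.6% held GATAA and 64.1% held GGAAG, so these matches describe the sequence and are common in it. The upstream window of Slc6a4 had a GC content of 64.8% and that of Fev 68.0%, against 43.6% for Tph2.

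Htr1a and Htr1b encode inhibitory serotonin receptors. Htr1a acts as the autoreceptor on the cell bodies of raphe neurons and Htr1b as the autoreceptor on their axon terminals, and both are also made by neurons that respond to serotonin. Htr1a lies on the plus strand of chromosome 13 (chr13:105443639-105448122) and Htr1b on the minus strand of chromosome 9 (chr9:81628291-81633828). Gata2 (plus strand, chr6:88193891-88207032) and Gata3 (minus strand, chr2:9857078-9890034) encode zinc finger factors that act in the serotonergic lineage, and both also work in GABAergic neurons of the midbrain and outside the nervous system. Slc6a4, Htr1b and Gata3 overlap genes on the opposite strand and Gata3 also 9230102O04Rik on its own strand. The strand setting of the counting is not given in the sources used here, so reads of these overlaps could have been split or lost.

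The libraries held 11489150 to 29397278 counts (median 24907639), and genes of serotonergic and dopaminergic neurons were present in every one, as midbrain should hold. The summed level of 10 dopaminergic genes was 419.5 to 545.7 CPM in 12 libraries and 289.7 CPM in Cre- MPTP replicate 1, where CPM are counts scaled to a common library total after TMM normalization. That library stood apart, with the lowest total, a TMM factor of 0.804 against 1.005 to 1.042 in the others, and 21101 genes detected. Its chi-square per degree of freedom against its group mates was 315 and 316, against 6.8 to 42.6 for every other pair within a group, so no pair agreed within sampling noise. Cre+ MPTP replicate 4 held muscle genes at a summed 6831 CPM (11.8 to 158.9 CPM elsewhere), and Cre+ Saline replicates 1 and 3 held pituitary genes at 613.8 and 450.6 CPM (at most 84.1 CPM elsewhere). Results below are given with and without Cre- MPTP replicate 1.

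Among the 7 genes Tph2 was the most abundant per kb of exon, taken over all exons of a gene. That length can exceed the longest transcript, with 5398 against 3571 bases for Gata2, so the order of the lower genes depends on it. In Cre- Saline mice its level was 35.0 ± 3.21 CPM per kb of exon (SD, n = 3), followed by Slc6a4 at 14.0 ± 2.33. Gata3 (5.75 ± 0.553) and Htr1a (5.39 ± 0.535) came next and lay within each other's spread, then Htr1b at 3.62 ± 0.133. Fev (2.93 ± 0.472) and Gata2 (2.77 ± 0.347) were lowest in CPM per kb of exon and also lay within each other's spread. The order of the group means was the same in Cre+ Saline mice, from 34.8 ± 5.26 CPM per kb for Tph2 to 2.58 ± 0.317 for Gata2. The paralog Tph1, which makes serotonin outside the brain and in the pineal gland, had 0 to 27 counts per library, against 236 to 2950 for Tph2.

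Tph2 measured 90.2, 104.1 and 107.7 CPM in Cre- Saline mice and 93.6, 117.4 and 89.3 CPM in Cre+ Saline mice. After MPTP it measured 25.6, 80.8 and 72.6 CPM in Cre- mice and 90.8, 83.5, 87.4 and 73.8 CPM in Cre+ mice. All 3 Cre- MPTP values lay below all 6 saline values, and 1 of the 4 Cre+ MPTP values overlapped them.

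Slc6a4 measured 52.7, 64.1 and 73.9 CPM in Cre- Saline mice and 58.9, 75.9 and 66.1 CPM in Cre+ Saline mice. It measured 39.8, 54.0 and 50.97 CPM in Cre- MPTP mice and 71.6, 51.5, 64.7 and 59.9 CPM in Cre+ MPTP mice. The Cre- groups overlapped by 1 mouse on each side, and the Cre+ groups overlapped widely.

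Fev was the member with the fewest counts, 49 to 176 per library. It measured 3.85, 5.19 and 5.15 CPM in Cre- Saline mice and 3.39, 5.53 and 4.53 CPM in Cre+ Saline mice. It measured 19.1, 1.94 and 2.61 CPM in Cre- MPTP mice and 3.696, 4.14, 3.11 and 3.59 CPM in Cre+ MPTP mice. The Cre- MPTP group thus held both the highest value of all 13 libraries, in replicate 1, and the lowest values, in replicates 2 and 3.

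The autoreceptor Htr1a measured 24.4, 26.1 and 21.4 CPM in Cre- Saline, 22.9, 24.2 and 24.0 in Cre+ Saline, 13.7, 27.7 and 23.7 in Cre- MPTP and 26.6, 24.7, 27.7 and 23.0 CPM in Cre+ MPTP mice. Htr1b measured 16.9, 17.8 and 16.6 CPM in Cre- Saline, 17.7, 17.4 and 16.5 in Cre+ Saline, 14.2, 18.4 and 20.1 in Cre- MPTP and 20.99, 18.9, 17.8 and 18.1 CPM in Cre+ MPTP mice. Both receptors were lowest in Cre- MPTP replicate 1. In the other 12 libraries they kept within narrow ranges, 21.4 to 27.7 CPM for Htr1a and 16.5 to 20.99 CPM for Htr1b, and all 6 other MPTP values of Htr1b lay above the highest saline value.

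Gata2 measured 15.8, 12.8 and 16.2 CPM in Cre- Saline mice and 13.8, 15.7 and 12.3 CPM in Cre+ Saline mice. It measured 52.6, 18.2 and 17.2 CPM in Cre- MPTP mice and 16.2, 15.2, 16.9 and 14.9 CPM in Cre+ MPTP mice. All 3 Cre- MPTP values lay above all 6 saline values, with replicate 1 far above the rest. Gata3 measured 24.0, 20.4 and 24.3 CPM in Cre- Saline, 21.2, 24.2 and 21.2 in Cre+ Saline, 32.2, 20.9 and 23.3 in Cre- MPTP and 25.5, 20.6, 26.5 and 24.8 CPM in Cre+ MPTP mice, with replicate 1 of Cre- MPTP again the highest.

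**Figure D1:**
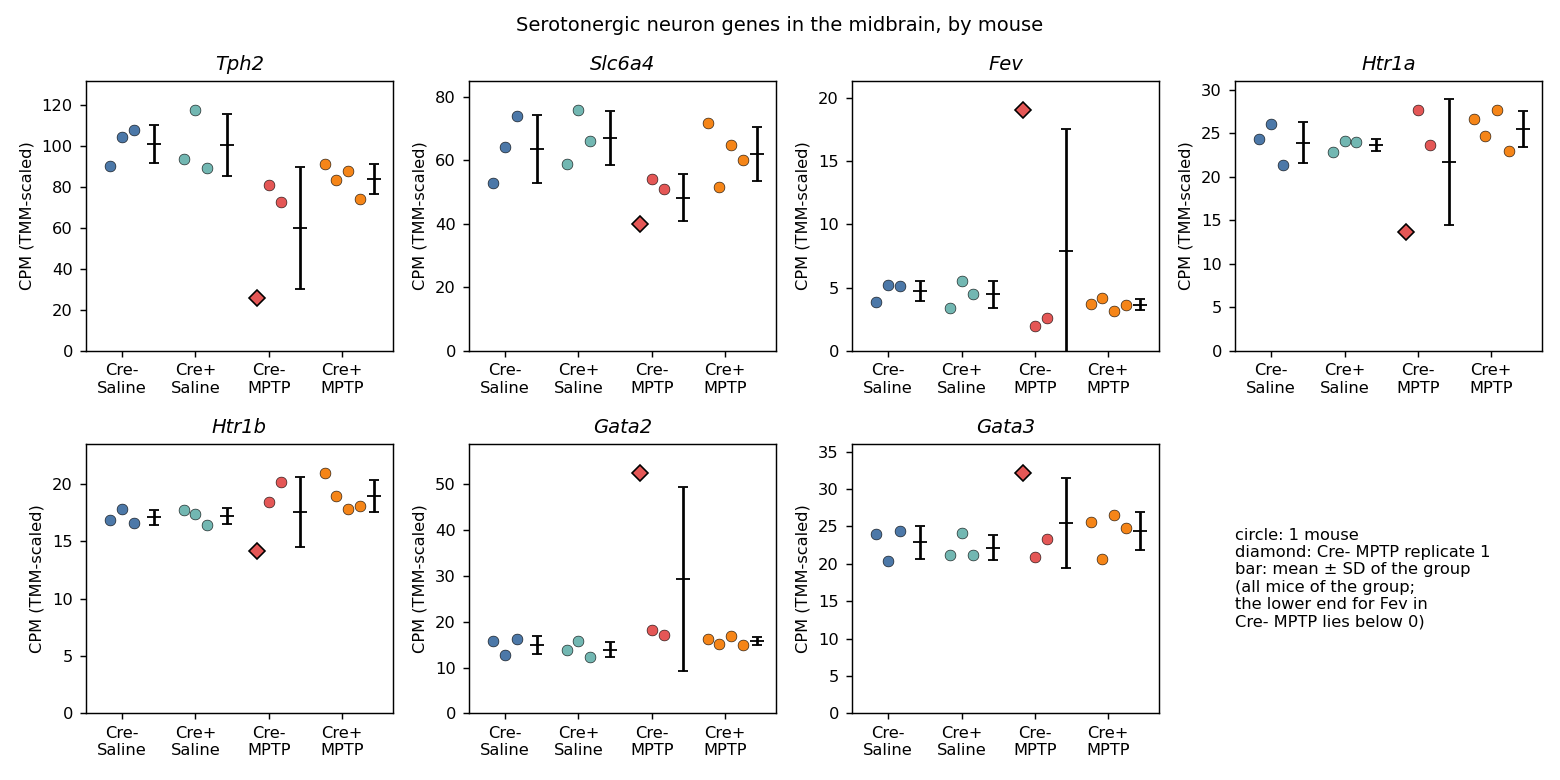
Level of each of the 7 genes in TMM-scaled CPM (y axis, from 0) in every mouse of the 4 groups (x axis), with the mean and SD of each group beside its points. Cre- MPTP replicate 1 (diamond) was lowest of all 13 libraries for Tph2, Slc6a4, Htr1a and Htr1b and highest for Fev, Gata2 and Gata3.

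Cre- MPTP replicate 1 therefore lay outside the range of the other 12 libraries for all 7 genes, below it for 4 and above it for 3. Its difference from the mean of replicates 2 and 3 was -1.58 in log2 CPM for Tph2, -0.90 for Htr1a, -0.44 for Htr1b and -0.40 for Slc6a4. It was 0.55 for Gata3, 1.57 for Gata2 and 3.04 for Fev. The same difference over 19294 tested genes moved with GC content of the longest transcript, from a median of -1.19 in the bin of lowest GC content to 1.66 in the bin of highest GC content, over 10 bins of equal size. The GC content of Fev was 63.2%, above that of 98.7% of tested genes, and that of Gata2 58.2%, while Htr1b (45.2%), Tph2 (46.4%) and Htr1a (49.1%) lay below the median of 49.6%. Gata3 (49.7%) and Slc6a4 (52.1%) lay just above it. Between replicates 3 and 2 of the same group the bin medians ran only from -0.10 to 0.05. The part of GC content in the values of single genes was not tested.

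**Figure D2:**
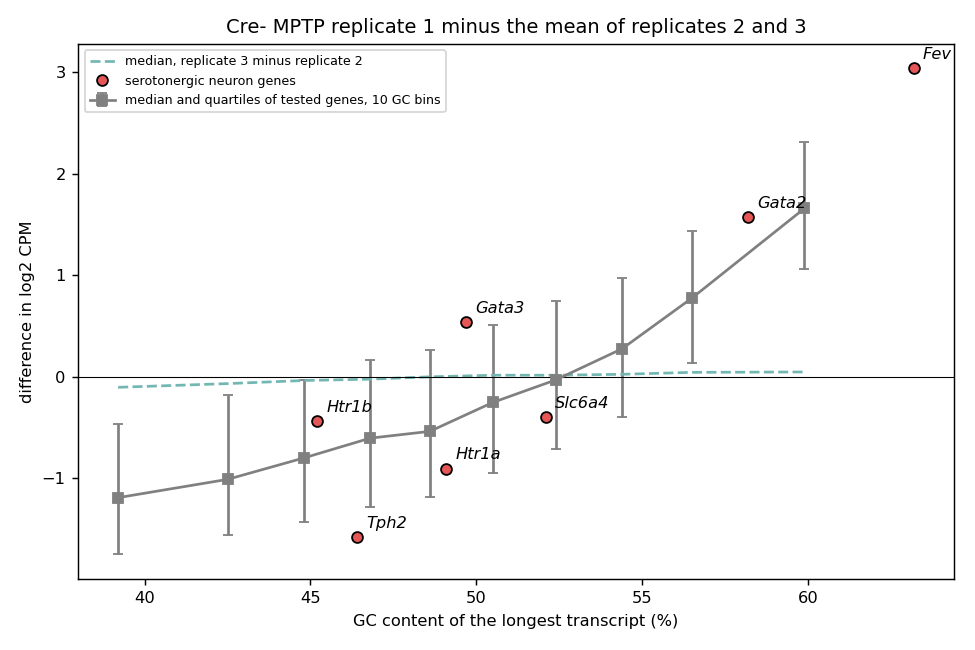
Difference in log2 CPM between Cre- MPTP replicate 1 and the mean of replicates 2 and 3 (y axis) against the GC content of the longest transcript in percent (x axis). Grey squares and bars are the median and quartiles of tested genes in 10 bins, red points the 7 genes, and the dashed line the medians of replicate 3 minus replicate 2. Fev (3.04) and Gata2 (1.57) lie at the GC-rich end and Tph2 (-1.58) lies below the median of its bin.

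The first comparison asks what MPTP changed in mice without the recombinase. With all 13 libraries, 0 of the 7 genes passed edgeR's quasi-likelihood test at an adjusted p under 0.05, where 3.18% of the 19360 tested genes did, and 3 of the 7 had an unadjusted p under 0.05. DESeq2 also called 0 of the 7, and limma voom with sample quality weights called 3. The shares of all tested genes called by DESeq2 and by voom were not counted. The log2 fold change of Tph2 was -0.75 (SE 0.31, adjusted p = 0.292), that of Slc6a4 -0.40 (SE 0.178, adjusted p = 0.327) and that of Fev 0.68 (SE 0.646, adjusted p = 0.619). Htr1a stood at -0.13 (SE 0.21), Htr1b at 0.05 (SE 0.149) and Gata3 at 0.15 (SE 0.175), each with an adjusted p of at least 0.701. Gata2 had a log2 fold change of 0.96 (SE 0.345, adjusted p = 0.216). The median over the 7 genes was 0.05, beside 0.03 over all tested genes. In bulk tissue, fewer cells of a type and less RNA per cell cannot be told apart.

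When Cre- MPTP replicate 1 was left out, 1 of the 7 genes, Fev, fell after MPTP in Cre- mice, where 9.38% of 19311 tested genes were called. Its log2 fold change was -1.05 (SE 0.248, 95% interval -1.58 to -0.51, adjusted p = 0.0179), a level of 0.484 times saline, with 2 remaining MPTP mice below all 3 saline mice. Tph2 stood at -0.39 (SE 0.125, adjusted p = 0.0709) and Slc6a4 at -0.27 (SE 0.153, adjusted p = 0.301). The log2 fold changes of Htr1a, Htr1b, Gata2 and Gata3 ranged from -0.05 to 0.25, with adjusted p of 0.283 or more. Of the 3 genes called by limma voom in all 13 libraries, Fev (-1.09) and Tph2 (-0.47) were lower and Gata2 (0.38, adjusted p = 0.0498) was higher.

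The GC content of a transcript also moved with the difference between Cre- MPTP replicates 2 and 3 and Cre- Saline. The median difference in log2 CPM was 0.13 in the bin of lowest and -0.22 in the bin of highest GC content, which holds Fev and Gata2. With a GC trend removed from each library and replicate 1 left out, a setting chosen after seeing the data, Fev had a log2 fold change of -0.78 (SE 0.238, adjusted p = 0.0653) and was no longer called. Gata2 was then called, with a log2 fold change of 0.41 (SE 0.114, adjusted p = 0.0443), and Tph2 stood at -0.45 (SE 0.13, adjusted p = 0.0542). Gata2 was also called with the trend removed from all 13 libraries (0.57, adjusted p = 0.0392). The share of all tested genes called was not counted in the fits with the trend removed, so these calls cannot be set against it.

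In Cre+ mice, bred to lose Ripk3 in astrocytes, 0 of the 7 genes passed the test after MPTP, and 0% of all 19360 genes did so (672 with an unadjusted p under 0.05, of which 0 were members). Tph2 had a log2 fold change of -0.26 (SE 0.287, 95% interval -0.88 to 0.37), Slc6a4 of -0.11 (SE 0.166) and Fev of -0.30 (SE 0.6, 95% interval -1.61 to 1.00). Htr1a, Htr1b, Gata2 and Gata3 had log2 fold changes of 0.11 to 0.18. The adjusted p of each was 1. The spread in this fit is shared by all 4 groups, and without Cre- MPTP replicate 1 the interval of Tph2 narrowed to -0.48 to -0.03 around -0.25 (adjusted p = 0.490).

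Averaged over both genotypes, 0 of the 7 genes passed the test with all libraries (2.84% of tested genes did, and 2 of the 7 had an unadjusted p under 0.05). Tph2 stood at -0.50 (SE 0.211, adjusted p = 0.375) and Fev at 0.19 (SE 0.441, adjusted p = 0.911), and the sign of Fev turned when Cre- MPTP replicate 1 was left out. Leaving out Cre- MPTP replicate 1, 2 of the 7 fell, Tph2 and Fev, where 9.14% of 19311 genes were called. The log2 fold change of Tph2 was -0.32 (SE 0.0813, 95% interval -0.50 to -0.15, adjusted p = 0.0257), and that of Fev was -0.68 (SE 0.158, 95% interval -1.02 to -0.33, adjusted p = 0.0174). Slc6a4 stood at -0.19 (SE 0.0994, 95% interval -0.41 to 0.02, adjusted p = 0.264). Htr1b (0.16, adjusted p = 0.164), Gata2 (0.22, adjusted p = 0.154), Htr1a (0.11, adjusted p = 0.412) and Gata3 (0.05, adjusted p = 0.785) had positive log2 fold changes that did not pass. With the GC trend removed as well, Tph2 stood at -0.35 (adjusted p = 0.0210), Fev at -0.51 (adjusted p = 0.0598) and Gata2 at 0.31 (adjusted p = 0.0227). Tph2 remained called (-0.29, adjusted p = 0.0430) when the library with muscle genes was left out together with replicate 1. The share of all tested genes called was not counted in that fit or with the GC trend removed. Of 8 general neuronal genes 0 were called with all libraries. Without replicate 1, Tubb3 (-0.36, adjusted p = 0.00525) and Rbfox3 (-0.26, adjusted p = 0.0461) also fell averaged over genotypes, 7 of the 8 had negative values, and the median of the 8 was -0.14 beside -0.00043 over all tested genes. The same genes, Tubb3 (-0.43, adjusted p = 0.0218) and Rbfox3 (-0.41, adjusted p = 0.0427), fell in Cre- mice. Rbfox3 measured 384.1 CPM in replicate 1 and 130.6 to 214.2 CPM elsewhere, so its direction turned with that library. Whether the lower Tph2 and Fev go with fewer neuronal transcripts at large was not tested.

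**Figure D3:**
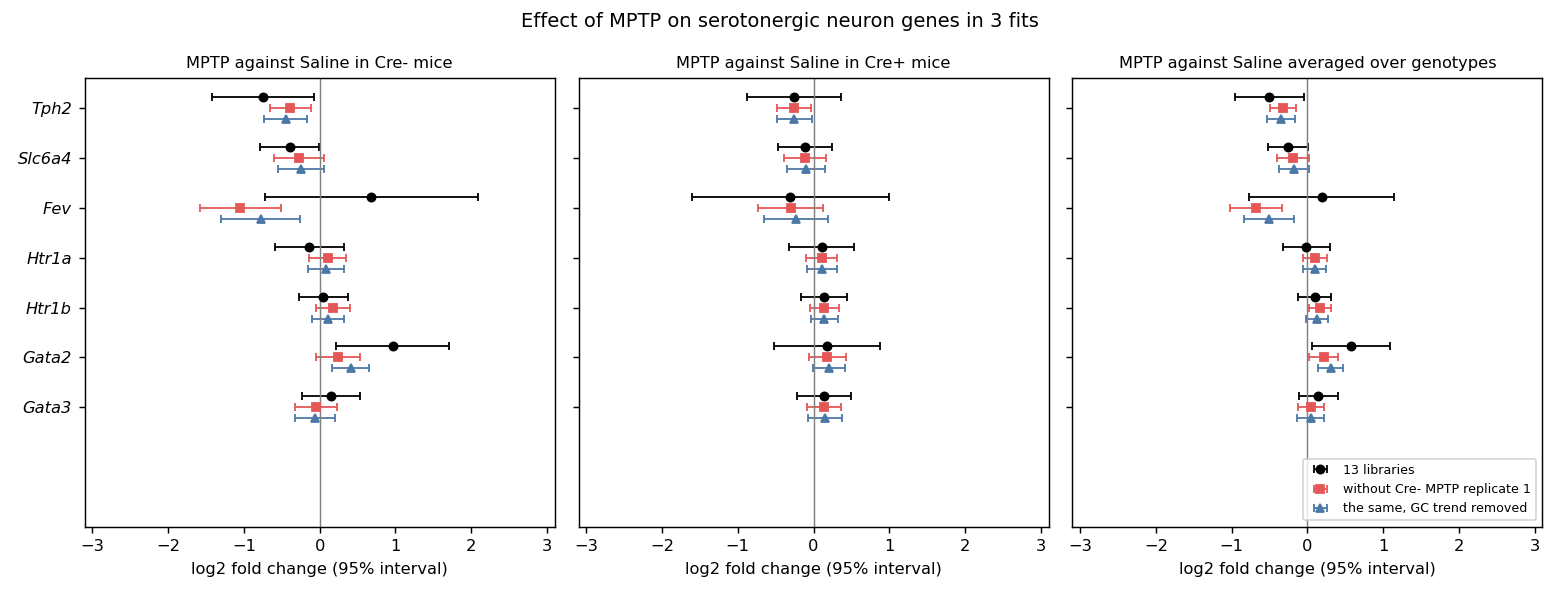
Log2 fold change after MPTP with its 95% interval (x axis) for each gene (y axis), in Cre- mice, in Cre+ mice and averaged over genotypes, with all 13 libraries (black), without Cre- MPTP replicate 1 (red) and with a GC trend removed as well (blue). The estimate of Fev in Cre- mice changes from 0.68 to -1.05 when that library is left out, while Tph2 lies below 0 in all 3 fits.

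Genotype was compared in Saline and in MPTP mice. In Saline mice 0 of the 7 genes differed between Cre+ and Cre- (0% of tested genes, 176 of them and 0 members with an unadjusted p under 0.05), with log2 fold changes of -0.10 to 0.07 and an adjusted p of 1 for each. In MPTP mice 0 of the 7 passed where 1.54% of tested genes did, and 1, Gata2, had an unadjusted p under 0.05. Tph2 had a log2 fold change of 0.49 (adjusted p = 0.371), Slc6a4 of 0.36 (adjusted p = 0.268), Fev of -1.07 (adjusted p = 0.349) and Gata2 of -0.88 (adjusted p = 0.199). The 7 genes again held 0 calls without Cre- MPTP replicate 1 (3.18% of genes called), Fev turned to 0.66 (SE 0.237, adjusted p = 0.213) and Gata2 came to -0.17 (adjusted p = 0.728). Without Cre- MPTP replicate 2, which leaves replicate 1 in, Gata2 was called at -1.11 (adjusted p = 0.0460). The share of all tested genes called was not counted in that fit.

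The interaction of genotype and MPTP, which tests whether MPTP acted differently in Cre+ and Cre- mice, called 0 of the 7 genes with all libraries (0.0103% of tested genes) and 0 without Cre- MPTP replicate 1 (1.03%). The difference for Tph2 was 0.49 (SE 0.422, adjusted p = 0.808) with all libraries and 0.14 (SE 0.162, 95% interval -0.21 to 0.49, adjusted p = 0.783) without that library. For Fev it was -0.99 (SE 0.88, adjusted p = 0.811) and 0.74 (SE 0.316, 95% interval 0.06 to 1.43, adjusted p = 0.376). A smaller fall of Fev in Cre+ mice was thus not shown by the test adjusted over all genes.

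The lower Tph2 was set against the dopaminergic gene for the same step, as log2 ratios of counts within a library. Th encodes tyrosine hydroxylase, the rate-limiting enzyme of dopamine synthesis, and Slc6a3 encodes the dopamine transporter. The log2 ratio of Th to Tph2 was -1.16, -1.53 and -1.01 in Cre- Saline, -1.15, -1.43 and -1.34 in Cre+ Saline, 0.91, -1.02 and -0.50 in Cre- MPTP and -1.03, -0.86, -1.39 and -1.21 in Cre+ MPTP mice. The ratio was higher after MPTP by 0.60 averaged over genotypes (p = 0.0357, two-sided exact permutation test within genotype, 700 arrangements, smallest possible p 0.00143). Within genotypes the difference was 1.03 in Cre- mice (exact permutation p = 0.200, where 3 against 3 mice cannot go below 0.1) and 0.18 in Cre+ mice (exact permutation p = 0.314). It was 0.33 without Cre- MPTP replicate 1 (exact permutation p = 0.0657). The call was lost on leaving out any of 8 of the 13 libraries, with exact permutation p of 0.0567 to 0.143. These 8 were all 3 Cre- Saline libraries, Cre+ Saline replicates 2 and 3, Cre- MPTP replicate 1 and Cre+ MPTP replicates 1 and 2. Library scaling cancels in the ratio, but a trend with GC content does not. The GC content was 54.1% for Th and 46.4% for Tph2. In log2 CPM, Cre- MPTP replicate 1 differed from its group mates by 0.09 for Th and -1.58 for Tph2. The part of GC content in the ratio was not tested.

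The log2 ratio of Slc6a3 to Slc6a4 was -0.24, -0.41 and 0.07 in Cre- Saline and -0.06, -0.66 and -0.53 in Cre+ Saline mice. It was -1.87, -0.12 and 0.12 in Cre- MPTP and -0.48, 0.37, -0.61 and -0.37 in Cre+ MPTP mice. Its difference after MPTP was -0.15 (exact permutation p = 0.800) and 0.17 without Cre- MPTP replicate 1 (exact permutation p = 0.363). Th itself had a log2 fold change averaged over genotypes of 0.02 (SE 0.134, adjusted p = 0.971) and Slc6a3 of -0.25 (SE 0.296, adjusted p = 0.795). Without replicate 1 these were 0.01 and -0.03. Of 10 dopaminergic genes 0 passed the test in either case, where 2.84% and 9.14% of all tested genes were called. No loss of dopaminergic transcripts was detected. At these shares 0 of 10 does not show that those transcripts were kept.

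**Figure D4:**
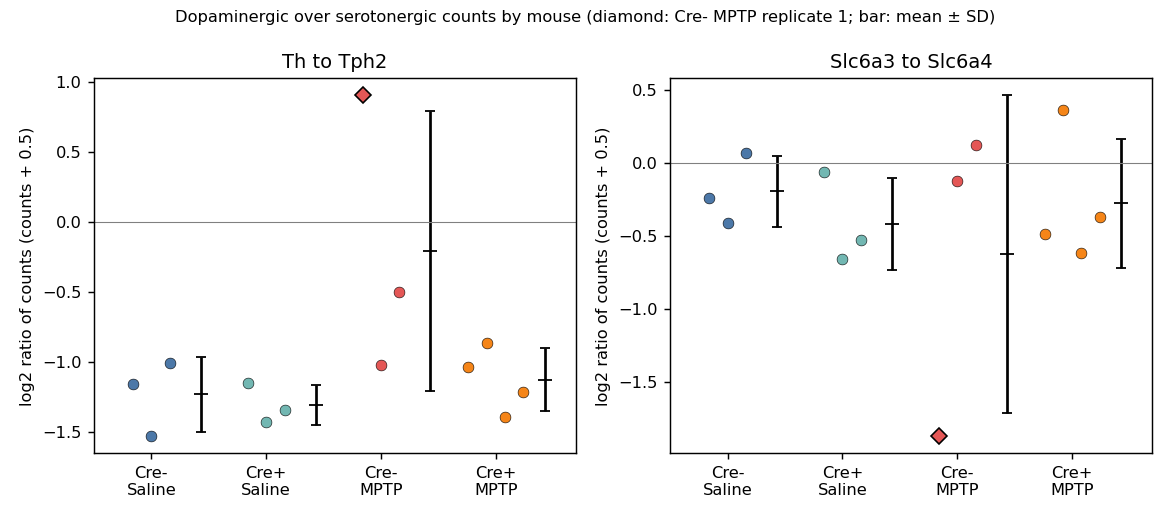
Log2 ratio of Th to Tph2 counts and of Slc6a3 to Slc6a4 counts (y axis) in every mouse of the 4 groups (x axis), with group means and SD. Cre- MPTP replicate 1 (diamond) is highest for the first ratio (0.91) and lowest for the second (-1.87).

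The wider serotonin pathway was covered by 12 genes for synthesis, cofactor supply, storage, breakdown and low-affinity uptake. With all libraries 0 of the 12 were called in any of the 6 comparisons. On leaving out Cre- MPTP replicate 1, 1 of the 12 rose and 1 fell in Cre- mice (9.38% of genes called), and 1 rose and 2 fell averaged over genotypes (9.14%). Ddc, the decarboxylase that completes both serotonin and dopamine synthesis, rose in Cre- mice by a log2 fold change of 0.60 (SE 0.0937, adjusted p = 0.00129), from 85.2 to 96.5 CPM in Saline to 124.1 and 148.6 CPM in MPTP replicates 2 and 3, with 69.2 CPM in replicate 1. Qdpr, which regenerates the tetrahydrobiopterin cofactor of both hydroxylases and is also abundant in oligodendrocytes, had a log2 fold change of -1.22 (SE 0.116, adjusted p = 4.8e-05). It measured 384.0 to 426.1 CPM in Cre- Saline, 187.4 and 159.9 CPM in MPTP replicates 2 and 3 and 470.7 CPM in replicate 1. Between genotypes in MPTP mice Qdpr was higher (0.66, adjusted p = 0.00432) and Ddc lower (-0.50, adjusted p = 0.00738) in Cre+ mice (3.18% of all genes called). Qdpr differed by the interaction (0.73, adjusted p = 0.0330, where 1.03% of all genes were called), with 253.6 to 314.7 CPM in Cre+ MPTP mice. Maoa, which breaks down serotonin, fell averaged over genotypes (-0.24, adjusted p = 0.0160). The vesicular transporter Slc18a2 stood at -0.0065 averaged over genotypes (adjusted p = 0.973). In Cre- mice the median log2 fold change of the 12 genes was -0.23 without that library, beside -0.0094 over all tested genes. In replicate 1 Qdpr itself lay 1.44 in log2 CPM above its group mates, where the median of genes of like GC content was -0.03.

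Of 12 other serotonin receptor genes 10 were tested and 0 were called with all libraries. Without Cre- MPTP replicate 1, Htr2a, the main excitatory cortical serotonin receptor, rose in Cre- mice (0.73, SE 0.164, adjusted p = 0.0134), from 4.64, 6.91 and 5.99 CPM in Saline to 9.11 and 10.2 CPM in MPTP replicates 2 and 3, with 2.49 CPM in replicate 1, the lowest of all libraries. The median of the 10 receptor genes was 0.15. Among other regulators of the serotonergic lineage, 0 were called with all libraries. Nkx2-2, which also marks oligodendrocyte precursors, fell in Cre- mice without Cre- MPTP replicate 1 (-1.03, SE 0.143, adjusted p = 0.000519). Nkx2-2 measured 14.3, 15.4 and 17.2 CPM in Cre- Saline, 7.92 and 7.33 CPM in Cre- MPTP replicates 2 and 3 and 44.7 CPM in replicate 1. Lmx1b, which maintains adult serotonergic neurons, measured 3.69 to 8.14 CPM in Cre- Saline and 4.91 to 7.04 CPM in Cre- MPTP mice, and the groups overlapped.

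Gata2 and Gata3 also mark cells other than serotonergic neurons, so markers of those cells are given beside them. Of 10 tested genes of the GABAergic lineage 0 were called with all libraries. The summed level of the list was 1574 to 1716 CPM in Cre- Saline, 1607 to 1680 in Cre+ Saline, 1736 to 1901 in Cre- MPTP and 1551 to 1830 CPM in Cre+ MPTP mice. The 1901 CPM came from Cre- MPTP replicate 1, where members of the list went opposite ways. There Slc32a1 was highest of all libraries (484.2 CPM, 163.0 to 226.1 CPM elsewhere) and Gad2 lowest (208.2 CPM, 290.4 to 405.0 CPM elsewhere). Without Cre- MPTP replicate 1, 1 of the 10 was called, Zfpm1, a cofactor of GATA factors, which fell (-0.73, adjusted p = 0.00726, where 9.38% of all genes were called). Zfpm1 measured 83.8 CPM in replicate 1 and 14.7 to 27.5 CPM in the other libraries, and with all libraries its log2 fold change was 0.61 (adjusted p = 0.579). On leaving it out Gad2, which makes GABA, stood at 0.32 (adjusted p = 0.0615) in Cre- mice. The summed level of 9 endothelial genes was 430.5 CPM in Cre- MPTP replicate 1 and 233.4 to 370.6 CPM elsewhere. Most of that sum in replicate 1 was Cldn5, a tight junction gene, at 298.4 CPM there and 45.1 to 87.1 CPM elsewhere. The high sum was thus not shared by the list, and 4 of the 9 had positive log2 fold changes in Cre- mice with all libraries (median -0.08). With all libraries 1 of the 9 was called in Cre- mice (3.18% of all genes), Tek, an angiopoietin receptor gene, which fell (-1.81, adjusted p = 0.00374). Between genotypes in MPTP mice Tek (1.88, adjusted p = 0.00907) and Kdr (1.28, adjusted p = 0.0421) were higher in Cre+ mice (1.54% of all genes called). Leaving out replicate 1, Emcn rose and Tek and Kdr fell in Cre- mice (9.38% of all genes called). The T cell genes Cd3e, Cd3d and Cd3g had at most 22 counts and the mast cell genes Cpa3, Tpsb2 and Cma1 at most 12 counts in any library. The part of these cells in the levels of Gata2 and Gata3 was not tested.

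The noradrenergic neurons of the locus coeruleus lie at the border of the midbrain, and their genes are given beside the raphe genes as neighbouring tissue. Their summed level was 5.15 CPM in Cre+ MPTP replicate 3, 7.48 in Cre- MPTP replicate 1 and 9.69 in Cre+ MPTP replicate 4, against 23.3 to 58.9 CPM in the other 10 libraries. Genes of hindbrain position were also lowest in Cre+ MPTP replicate 3, at a summed 10.2 CPM. They were highest in Cre- MPTP replicate 1 (83.1 CPM), where noradrenergic genes were low, and measured 19.1 to 30.3 CPM elsewhere. The summed level of 7 cerebellar genes was likewise lowest in Cre+ MPTP replicate 3 (176.6 CPM). It was highest in Cre- MPTP replicate 1 (344.4 CPM), with at most 284.0 CPM elsewhere. In Cre- mice with all libraries, 2 of these 7 genes had positive log2 fold changes after MPTP (median -0.27). Dbh, which makes noradrenaline, measured 2.13 CPM in Cre+ MPTP replicate 3, where Tph2 measured 87.4 CPM and Fev 3.11 CPM, within the ranges of the other Cre+ MPTP mice or just below them. In Cre+ MPTP replicate 4 Tph2 had the lowest value of its group (73.8 CPM). The part of dissection in the serotonergic values was not tested.

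The 21 pairs of members were correlated over the 13 mice in log2 CPM. By Pearson's r 5 pairs passed an adjusted p of 0.05 and by Spearman's rho 0 did (permutation tests with 100000 resamples, Benjamini-Hochberg adjustment over 21 pairs). Tph2 and Slc6a4 had r = 0.82 (permutation p = 0.00031, adjusted 0.00651) and rho = 0.769 (permutation p = 0.00306, adjusted 0.0643). Without the 2 mice farthest from the median of Tph2, Cre- MPTP replicate 1 and Cre+ Saline replicate 2, r was 0.641 (permutation p = 0.0340, adjusted 0.238) and the pair no longer passed. Without Cre- MPTP replicate 1 and the muscle-bearing library r was 0.788 (permutation p = 0.00316, adjusted 0.0332) and the pair passed, and without Cre- MPTP replicate 1 alone r was 0.733 (adjusted permutation p = 0.0741). Taken as deviations from the group means, r was 0.674 (permutation p = 0.00903, adjusted 0.115) and rho 0.808 (adjusted 0.0331).

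Tph2 and Fev had r = -0.637 and rho = 0.368 over 13 mice (permutation p = 0.0773 and 0.215, adjusted 0.108 and 0.623). The sign of r turned without the 2 mice farthest from the median of Tph2, where it was 0.681 (permutation p = 0.0201, adjusted 0.211), and without Cre- MPTP replicate 1 alone it was 0.743 (permutation p = 0.00571, adjusted 0.0741). With the muscle-bearing library left out as well it was 0.804 and passed the adjusted threshold (adjusted permutation p = 0.0332). Slc6a4 and Fev behaved alike, with r of -0.313 and rho of 0.236 over all mice (permutation p = 0.286 and 0.438), 0.531 without the 2 farthest mice and 0.619 without replicate 1. Within groups and without replicate 1, r was 0.404 for Tph2 and Fev and 0.389 for Slc6a4 and Fev (adjusted permutation p = 0.899 for both). Gata2 and Gata3 had r = 0.794 (permutation p = 0.00418, adjusted 0.0368) and rho = 0.511 (permutation p = 0.0770, adjusted 0.404), and r fell to 0.409 (adjusted permutation p = 0.502) without the 2 farthest mice. The other pairs past the adjusted threshold were Fev with Htr1a (r = -0.862), Fev with Htr1b (r = -0.757) and Htr1a with Htr1b (r = 0.74). Without Cre- MPTP replicate 1, 0 of the 21 pairs passed and r changed sign in 12 of them.

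The genes whose levels over mice were most like those of the members are given as a description, since libraries share their depth and base composition. Over 13 libraries the mean Pearson r to Tph2, Slc6a4 and Fev was at most 0.51, for the glycine transporter gene Slc6a9, followed by Ncan and Kazn at 0.501. Over 12 libraries without Cre- MPTP replicate 1 the highest were Prmt2 (0.856), Nkd1 (0.848), Llgl1 (0.843) and Slc29a4 (0.833), a low-affinity transporter of serotonin and dopamine. Htr1a was most like Alkbh3os1 (0.964) and Snhg11 (0.960), Htr1b like Thap2 (0.910), Gata2 like Grin1 (0.984) and Adam15 (0.983), and Gata3 like Klhl34 (0.949) over 13 libraries. Without that library Klhl34 was still the gene most like Gata3 (0.899), while Eva1c (0.895) was most like Gata2, Rab8b (0.887) most like Htr1b and Sgcz (0.809) most like Htr1a.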

How the data were processed

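RNA-Seq counts of 13 midbrain libraries were analysed. Per the labels and the study's methods, total RNA was used with a stranded kit, and the authors used Trimmomatic 0.36 for trimming, STAR 2.5.2b for alignment (GRCm38) and featureCounts (Subread 1.5.2) for reads that hit the exons of 1 gene. The authors deposited these counts without normalization. Symbols were taken from GENCODE M21 for 49056 of 49315 genes.

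Counts were tested with edgeR 4.0.16 (R 4.3.3): TMM factors, a filter of 10 or more counts in 3 or more libraries, 1 term per group over all libraries, quasi-likelihood test, Benjamini-Hochberg adjustment over 19360 genes, adjusted p under 0.05. An SE is the absolute log2 fold change divided by the square root of F. Log2 CPM used a prior count of 2, and ratios used counts plus 0.5. The fit was tested on simulated data. Alternatives were DESeq2 1.42.0, voom of limma 3.58.1, other filters and scalings, a replicate block, each library left out, and, added after seeing the data, removal of a GC trend. Same-numbered mice did not deviate together (r of -0.179 to 0.184 over 18 pairs), so numbers were not taken as pairs. Named genes were the 7 members, genes of fixed lists and the genes most like the members by r. The members and lists were chosen with earlier results of these data known. Mice are separate animals, and depth (11489150 to 29397278 counts) limits precision for genes with few counts such as Fev. RefSeq promoter windows matched all 7 symbols. Some genes of the lists are not reported here.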

Additional observations from a re-analysis of the deposited data

How the results depend on the processing

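With all libraries 0 of the 7 genes were called in all 6 comparisons by edgeR, by DESeq2 and under the other filters and scalings. In Cre- mice, MPTP against Saline gave 3 calls by limma voom, and 1 each without both libraries that stand apart (Cre- MPTP replicate 1 and the one with muscle genes), with a GC trend removed, and with that trend removed and replicate 1 left out. Averaged over genotypes these settings gave 3, 2, 1 and 2 calls. Shares of all tested genes called were counted only by edgeR with all libraries and without Cre- MPTP replicate 1. Calls in the other settings thus have no share beside them. Leaving out each library in turn gave 0 to 1 calls in Cre- mice, 0 to 1 for genotype in MPTP mice and 0 to 2 averaged over genotypes, with 1 (Fev) and 2 (Tph2 and Fev) without Cre- MPTP replicate 1 and 1 (Gata2) without Cre- MPTP replicate 2. The fit on 2 groups only gives no interaction and no averaged comparison. With the replicate block 0 genes were called in each of the 6 comparisons. Mouse numbers are not stated to pair mice, and same-numbered mice did not deviate together. Depth limits Fev most, with 49 to 176 counts per library.

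Log2 fold changes changed sign under the following settings, and no cause was tested. By voom, Fev was -1.09 in Cre- mice and -0.69 averaged, 0.59 between genotypes in MPTP mice and 0.79 for the interaction. Without both libraries Fev was -1.04, -0.67, 0.67 and 0.74 in the same order, with the GC trend removed -0.41, -0.32, 0.23 and 0.17, and with replicate 1 also left out -0.78, -0.51, 0.60 and 0.55. In Saline mice Fev was 0.055 and 0.054 in the GC fits. Htr1a averaged was 0.065 by voom, 0.14 without both libraries, and 0.021 and 0.096 in the GC fits, and in Cre- mice it was 0.12 without both libraries and 0.080 in the second GC fit, where it was -0.0047 between genotypes in MPTP mice. Htr1b in Saline mice was -0.035 by voom and -0.041 and -0.037 in the GC fits. Between genotypes in MPTP mice Htr1b was -0.0016 by voom, -0.0063 without both libraries, and -0.11 and -0.0071 in the GC fits. Its interaction was -0.019 without both libraries and -0.064 with the GC trend removed, and in Cre- mice it was -0.018 without TMM. Gata2 and Gata3 in Saline mice were 0.011 and 0.048 by voom. Gata3 in Cre- mice was -0.037 without both libraries and -0.064 in the second GC fit. Between genotypes in MPTP mice Gata3 was 0.15 by voom, 0.13 without both libraries, 0.15 in the second GC fit and 0.068 without TMM. Its interaction was 0.11 by voom, 0.17 without both libraries, 0.21 in the second GC fit, 0.11 without TMM and 0.019 with no count filter.

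Leaving out each library in turn turned these signs. In Cre- mice Fev ranged from -1.05 to 1.13, Htr1a from -0.34 to 0.11, Htr1b from -0.064 to 0.18 and Gata3 from -0.048 to 0.26. Between genotypes in Saline mice Tph2 ranged from -0.14 to 0.072, Slc6a4 from -0.043 to 0.20, Fev from -0.25 to 0.098, Htr1a from -0.083 to 0.051, Htr1b from -0.0055 to 0.043 and Gata3 from -0.12 to 0.0073. In MPTP mice Fev ranged from -1.51 to 0.66, Htr1a from -0.013 to 0.44, Htr1b from -0.028 to 0.22 and Gata3 from -0.17 to 0.14. Interactions ranged from -1.44 to 0.74 for Fev, -0.035 to 0.21 for Htr1b and -0.13 to 0.19 for Gata3. Averaged values ranged from -0.68 to 0.41 for Fev and -0.12 to 0.11 for Htr1a.

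The log2 ratio of Th to Tph2 lost its call within Cre- mice (1.03), within Cre+ mice (0.18) and without both libraries (0.34), and leaving out each library gave 0.33 to 0.81. That of Slc6a3 to Slc6a4 was 0.18 without both libraries, 0.14 within Cre+ mice and -0.33 to 0.17 with each library left out. As deviations from group means r was 0.67 for Tph2 with Slc6a4 and 0.85 for Gata2 with Gata3, neither past the adjusted threshold. By rho both pairs passed there, at 0.808 and 0.89 (adjusted permutation p = 0.0331 for each). With Cre- MPTP replicate 1 left out as well, rho was 0.776 and 0.734 and neither passed (adjusted permutation p = 0.244 for each). Without Cre- MPTP replicate 1 the 4 correlations were 0.73 (Tph2 with Slc6a4), 0.74 (Tph2 with Fev), 0.62 (Slc6a4 with Fev) and 0.48 (Gata2 with Gata3), and as deviations 0.71, 0.40, 0.39 and 0.69. Without the 2 farthest libraries they were 0.64, 0.68, 0.53 and 0.41. Without both libraries Tph2 with Fev was 0.80, Slc6a4 with Fev 0.62 and Gata2 with Gata3 0.52, and the last was 0.47 without TMM.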
